A study of Mus musculus with 6 samples.

Results

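*Lztr1*, 7 cullin genes (*Cul1*, *Cul2*, *Cul3*, *Cul4a*, *Cul4b*, *Cul5*, and *Cul7*) and the RING protein genes *Rbx1* and *Rnf7* were examined in the mRNA-Seq of mouse left ventricles (LVs). These 10 genes were picked by name from the 12629 genes that the authors' comparison names and joined by identifier to the 56923 genes of the count table, and all 10 were among the 17212 genes that passed the filter on low counts. The libraries came from 3 mice labelled wild-type (WT) and 3 mice labelled mutant, all 12 weeks of age. Each mouse gave 1 library. The labels do not name the mutation. The study's results report the mRNA-Seq for LVs of heterozygous knock-in mice carrying R409C in *Lztr1*. Its methods describe this line and a G245R line, both made by CRISPR/Cas9 and backcrossed to C57BL/6J, and state that male mice were used. The mutants are called *Lztr1* R409C/+ mice here, and the alteration is in the germline, so every cell type of the ventricle carries it.

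Cullin-RING ligases attach ubiquitin to proteins. A cullin is the elongated scaffold, its C-terminal end holds a RING protein (RBX1 or RNF7) that recruits the ubiquitin-loaded enzyme, and its N-terminal end holds an adaptor that selects the substrate. LZTR1 is a BTB-Kelch adaptor of CUL3 ligases, and RAS-family GTPases such as RIT1 and MRAS are its known substrates. Missense variants of its Kelch domain cause the dominant form of Noonan syndrome, in which cardiac hypertrophy is frequent.

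The edit that defines the mutant group lies in the gene that leads the list, so its sequences are shown first. *Lztr1* (ENSMUSG00000022761.13) spans 17326299 to 17344202 on the plus strand of chromosome 16 in GRCm39. The guide of 20 bases, with its protospacer-adjacent motif in capitals, occurred once in the gene, at chr16:17339378-17339397. It is printed 1 base shorter than the 21 bases listed for it, because in the genome the motif follows the first 20. The donor of 79 bases differed from the reference at 1 base, C1225T counted from the start of the coding sequence, at position 17339393 in exon 11 of 21. It turns the codon CGC into TGC, which gives R409C. Of the donor's bases, 66 are coding and the others reach into the intron that follows. Below, reference and donor are printed on the coding strand over chr16:17339354-17339432 with the edited codon in capitals.
Guide and motif: gtagacaacaacattcgcagTGG
Reference: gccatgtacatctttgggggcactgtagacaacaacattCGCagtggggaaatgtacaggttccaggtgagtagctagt
Donor: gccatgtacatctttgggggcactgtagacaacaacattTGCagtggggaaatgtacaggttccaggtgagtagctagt

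The edit is a substitution inside an exon and adds or removes no base. Whether it alters the splicing of the transcript was not tested. The deposited values are sums per gene, so transcripts of the WT and the R409C allele are counted together and the genotype of each mouse could not be read from them.

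Total counts lay between 66130887 and 72641124 per mouse, and the members had between 796 and 14520 counts in a library. Values are given as CPM, in which each count is set relative to the total of its library after TMM scaling, a correction for differences in composition between libraries. At this depth 3 counts were worth at most 0.0541 CPM, so every member was far above the counting floor. The share of counts from mitochondrially encoded genes was 29.7% to 37.3% in 4 mice, but 13.8% for WT replicate 3 and 45.4% for *Lztr1* R409C/+ replicate 1. The summed level of 6 cardiomyocyte markers was 35565 to 38800 CPM in WT and 25488 to 35856 CPM in *Lztr1* R409C/+ mice, and no marker was at 0. Of 4 atrial markers, *Sln* had 0 counts in 5 of the mice and *Myl7* in 4, *Myl4* was below 1 CPM in every mouse, and *Nppa* made up nearly all of their sum, which was 38.1 to 76.6 CPM in WT and 53.5 to 107.0 CPM in *Lztr1* R409C/+ mice. The summed level of 7 macrophage markers was 98.1 to 108.0 CPM in WT and 175.7 to 186.3 CPM in *Lztr1* R409C/+ mice, without overlap. All 7 were higher in the mutants, 6 of them at an unadjusted p under 0.05, and 1 (*C1qb*) passed the adjusted threshold of 0.05 in edgeR. With DESeq2's Wald test, *C1qa*, *C1qb*, and *Tyrobp* passed it. All 5 erythroid markers were higher in the mutants (median log2 fold change 0.97), 3 of them at an unadjusted p under 0.05 and none past the adjusted threshold in edgeR. *Hba-a1* passed it with DESeq2's Wald test. The sum of the 5 was 578.8 to 1479 CPM in WT and 1042 to 2625 CPM in *Lztr1* R409C/+ mice, with overlap. In tissue RNA, fewer cells of a type and less RNA per cell cannot be told apart.

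No member passed the threshold of 0.05 after Benjamini-Hochberg adjustment over all genes tested with edgeR's quasi-likelihood test, and none did with DESeq2. Over all genes, 0.0407% passed it in edgeR. At an unadjusted p under 0.05, 1 member (*Cul5*, lower) was called, where 8.63% of all genes were called in either direction, 2.86% lower and 5.77% higher. A share of 1 in 10 is near that background. In the fit with TMM, the estimates of all 7 cullins and *Rbx1* were lower in the mutants and those of *Lztr1* and *Rnf7* higher. On library size only all 10 were lower, in a fit whose median log2 fold change over all genes was -0.14. With TMM, the median log2 fold change of *Lztr1* R409C/+ over WT was -0.08 for the 10 members and -0.12 for the 7 cullins, beside 0.01 for all genes tested, of which 48.6% were lower. The median of the members was -0.02 without *Lztr1* R409C/+ replicate 3 and -0.16 without *Lztr1* R409C/+ replicate 1. The groups did not overlap in CPM for 1 member, *Cul3*, which was lower. Over all genes, 15.5% did not overlap, and 7.23% were lower without overlap.

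*Lztr1*, the adaptor, had 24.2, 24.2, and 22.2 CPM in the 3 WT mice and 23.9, 27.9, and 25.3 CPM in the 3 *Lztr1* R409C/+ mice, in replicate order. *Lztr1* R409C/+ replicate 1 lay within the WT range and the other mutants above it. The means were 23.5 ± 1.11 and 25.7 ± 2.03 CPM (SD, n = 3 in each group). The log2 fold change of *Lztr1* was 0.13 with a standard error of 0.15 and an adjusted p of 0.854 (edgeR). Its 95% interval ran from -0.20 to 0.45 on the log2 scale, which leaves out a doubling and a halving of the transcript. Without TMM, on library size only, the estimate of *Lztr1* was -0.014, beside a median of -0.14 over all genes in that fit. Without *Lztr1* R409C/+ replicate 2 the estimate of *Lztr1* was 0.058 with TMM. *Lztr1* shares 1487 exonic bases with *Thap7*, a gene on the opposite strand. *Thap7* had 317 to 404 counts per mouse and a log2 fold change of 0.14, and since the sources used here do not state whether counting was stranded, reads from the shared stretch cannot be assigned with certainty.

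**Figure D1:**
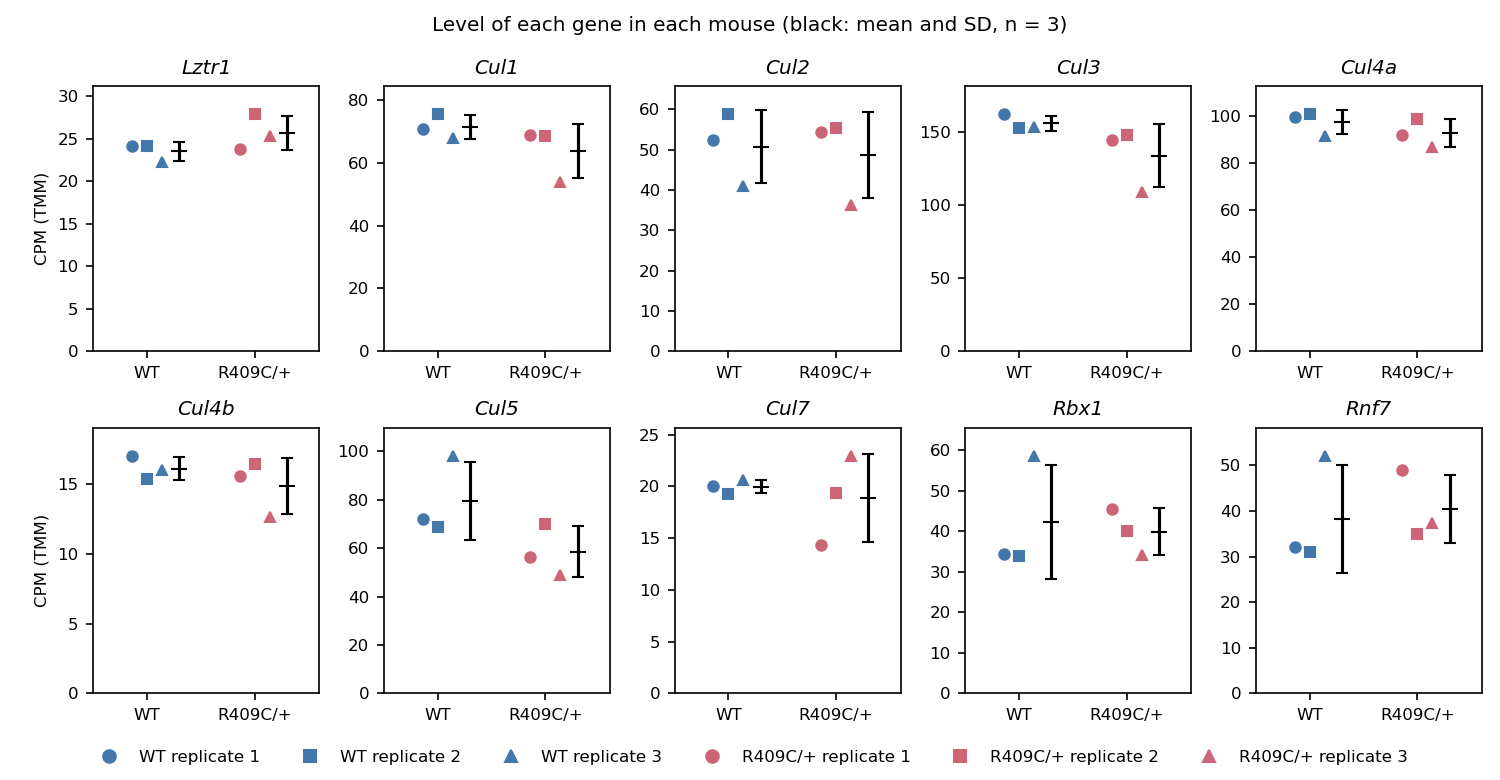
CPM (y axis, linear and starting at 0, scaled separately in each panel) of the 10 genes in each mouse, with WT in blue, *Lztr1* R409C/+ (R409C/+) in red, replicate numbers as symbols, and the mean and SD of 3 mice in black. *Cul3* is the panel in which no red point reaches a blue one, and *Rbx1*, *Rnf7*, and *Cul5* each have WT replicate 3 far above the other WT mice.

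*Cul3*, the scaffold to which LZTR1 and other BTB proteins bind, had 161.8, 152.8, and 153.3 CPM in WT and 144.3, 148.0, and 108.7 CPM in *Lztr1* R409C/+ mice, in replicate order. Every mutant was below every WT mouse, with *Lztr1* R409C/+ replicate 3 far below the rest. The means were 156.0 ± 5.10 and 133.7 ± 21.7 CPM (SD, n = 3 in each group), and their ratio was 0.857 in the fit. The log2 fold change of *Cul3* was -0.22 with a standard error of 0.16 and a 95% interval from -0.58 to 0.14 (adjusted p = 0.751, edgeR). Without *Lztr1* R409C/+ replicate 3 it was -0.09, and on library size only it was -0.40. *Cul3* lies on the minus strand of chromosome 1, from 80242639 to 80318537, and shares no exonic base with the other annotated genes at its locus that have a row in the count table.

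*Cul5* encodes the scaffold that works with elongins, SOCS-box receptors, and RNF7. Its CPM was 71.8, 68.7, and 97.8 for the WT mice, against 56.5, 69.9, and 49.0 for the mutants. Here *Lztr1* R409C/+ replicate 2 lay above WT replicate 2, and so the groups overlapped. Means were 79.4 ± 16.0 and 58.4 ± 10.6 CPM (SD, n = 3 in each group). The log2 fold change of *Cul5* was -0.44 with a standard error of 0.19 (unadjusted p = 0.0367, adjusted p = 0.554, edgeR). The size rested in part on single mice. Without WT replicate 3, the mouse with the low mitochondrial share, the log2 fold change was -0.27 (unadjusted p = 0.166, edgeR). Without *Lztr1* R409C/+ replicate 3 it was -0.33 (unadjusted p = 0.124, edgeR), while without *Lztr1* R409C/+ replicate 1 it was -0.43 (unadjusted p = 0.0734, edgeR), close to the value with all mice. It was larger in size without WT replicate 1 (-0.51), WT replicate 2 (-0.54), or *Lztr1* R409C/+ replicate 2 (-0.60). In each of those fits 1 member had an unadjusted p under 0.05 (edgeR). *Cul5* (ENSMUSG00000032030.18) lies on the minus strand of chromosome 9, from 53525882 to 53581314, and shares 275 exonic bases with *Gm16124* on the opposite strand, which had 15 to 81 counts per mouse.

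The other scaffolds differed by less. *Cul1*, the scaffold of the SKP1-F-box ligases, had 70.8, 75.3, and 67.7 CPM in WT and 68.6, 68.4, and 53.9 CPM in the mutants. Its log2 fold change was -0.16 with a standard error of 0.16, and -0.056 without *Lztr1* R409C/+ replicate 3. *Cul1* (chromosome 6, 47430293 to 47510320, plus strand) shares 94 exonic bases with *Ezh2* on the opposite strand, whose log2 fold change was 0.62 (unadjusted p = 0.0212, edgeR). *Cul2*, the scaffold of the VHL ligase, had 52.5, 58.7, and 40.9 CPM in WT and 54.3, 55.3, and 36.3 CPM in the mutants. Within each genotype *Cul2* was lowest in replicate 3, and its log2 fold change of -0.06 was smaller than its standard error of 0.20. *Cul4a* and *Cul4b* encode a pair of closely related scaffolds that bind DDB1. *Cul4a* had 99.6, 100.5, and 91.4 CPM in WT and 91.9, 98.7, and 86.8 CPM in the mutants. Its standard error was the smallest of the cullins (0.15), with means of 97.2 ± 5.01 CPM in WT and 92.5 ± 5.96 CPM in the mutants (SD, n = 3 in each group) and a log2 fold change of -0.07. X-linked *Cul4b* (37620412 to 37665081, minus strand) had 16.1 ± 0.826 and 14.9 ± 1.98 CPM (SD, n = 3 in each group) and a log2 fold change of -0.12. Without *Lztr1* R409C/+ replicate 3 the log2 fold change was -0.028 for *Cul4a* and -0.011 for *Cul4b*, and without *Lztr1* R409C/+ replicate 2 it was -0.13 and -0.20. *Cul7* (chromosome 17, 46961255 to 46975290, plus strand), the scaffold that associates with FBXW8 and OBSL1, had 20.0, 19.3, and 20.6 CPM in WT and 14.4, 19.4, and 22.9 CPM in the mutants, which spread to both sides of the WT range. Adjusted p-values of *Cul1*, *Cul2*, *Cul4a*, *Cul4b*, and *Cul7* lay between 0.814 and 0.957 (edgeR). *Lztr1* R409C/+ replicate 3 had the lowest level of all 6 mice for 6 of the 7 cullins and the highest for *Cul7*.

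*Rbx1* (chromosome 15, 81350467 to 81360571, plus strand), the RING partner of most cullins, had 34.4, 33.9, and 58.5 CPM in WT and 45.7, 40.1, and 34.1 CPM in *Lztr1* R409C/+ mice. *Rnf7* (chromosome 9, 96352990 to 96360749, minus strand), which encodes the RING partner of CUL5, had 32.0, 30.9, and 51.9 CPM in WT and 48.9, 34.9, and 37.3 CPM in *Lztr1* R409C/+ mice. For both genes the highest value belonged to WT replicate 3 and the next to *Lztr1* R409C/+ replicate 1, the mice with the lowest and the highest mitochondrial share, and the part of that share in these values was not tested. Log2 fold changes were -0.08 (standard error 0.22) for *Rbx1* and 0.08 (standard error 0.22) for *Rnf7*. When WT replicate 3 was left out, they were 0.22 for *Rbx1* and 0.36 for *Rnf7* (unadjusted p = 0.213 and 0.0748, edgeR). On library size only, the log2 fold change was -0.34 for *Rbx1* and -0.18 for *Rnf7*.

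To set the genes against each other, CPM was divided by the length of the annotated exons of each gene (CPM per kb). *Rnf7* and *Cul3* were the most abundant, at 27.4 ± 8.49 and 28.0 ± 0.917 CPM per kb in WT and 28.9 ± 5.35 and 24.0 ± 3.90 CPM per kb in *Lztr1* R409C/+ mice (SD, n = 3 in each group). These neighbours were not separated, since *Rnf7* was above *Cul3* in 3 of 6 mice. *Cul4a* came next, at 15.1 CPM per kb in WT, and was below *Cul3* in all 6 mice. Then followed *Rbx1* (8.92), *Cul5* (7.99), *Cul1* (5.82), and *Cul2* (5.45 CPM per kb in WT), of which *Cul1* and *Cul2* were not separated, with *Cul1* above *Cul2* in 3 of 6 mice. *Lztr1* stood below *Cul2* in all 6 mice, at 3.52 ± 0.167 CPM per kb in WT and 3.85 ± 0.304 CPM per kb in *Lztr1* R409C/+ mice (SD, n = 3 in each group). *Cul4b* (2.86) and *Cul7* (2.69 CPM per kb in WT) were the least abundant and swapped order in 1 of 6 mice. With the longest annotated transcript as the length, 4 of the 10 genes took another rank (*Cul1* with *Cul5*, and *Cul4b* with *Cul7*), and *Lztr1* kept rank 8.

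**Figure D2:**
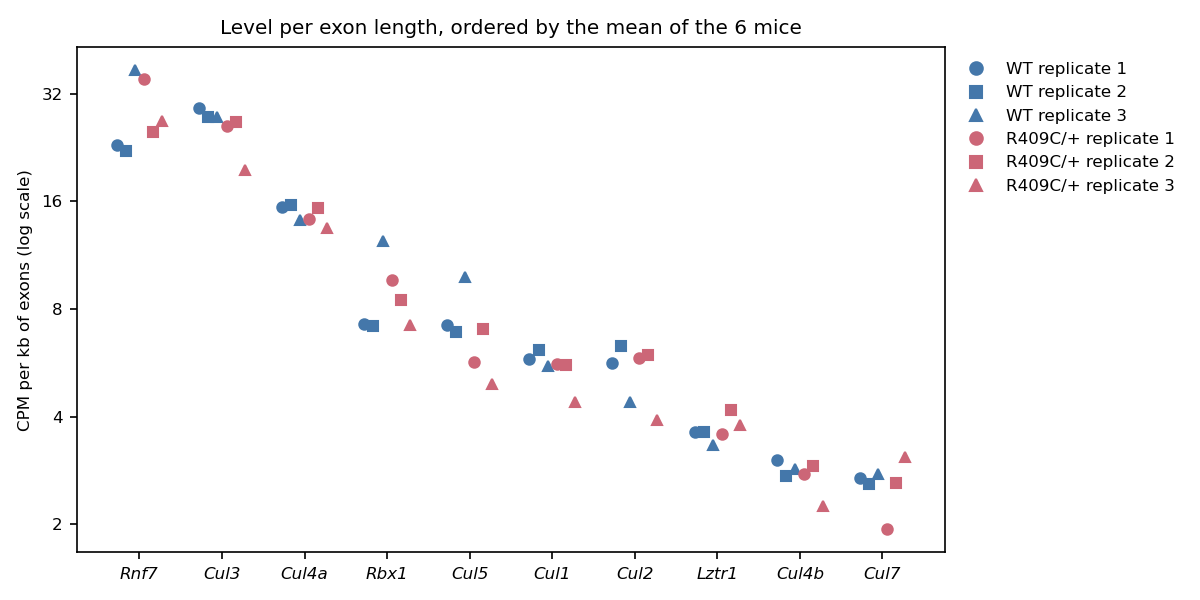
CPM per kb of annotated exons (y axis, log scale) of each gene in each mouse, ordered by the mean over 6 mice, with WT in blue, *Lztr1* R409C/+ (R409C/+) in red, and replicate numbers as symbols. *Rnf7* and *Cul3* lie highest, and the 6 *Lztr1* points lie together between *Cul2* and *Cul4b*.

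Summed over the 7 cullins, the pool was 68.9, 67.7, and 67.1 CPM per kb in WT and 62.0, 66.0, and 51.6 CPM per kb in *Lztr1* R409C/+ mice. All mutants lay below all WT mice, and a two-sided exact permutation test gave p = 0.1, its floor with 3 against 3. Of all single genes, 7.23% were lower without overlap. The pool means were 67.9 and 59.9 CPM per kb, and *Cul3* alone, itself lower without overlap, had means of 28.0 and 24.0 CPM per kb. Much of the difference in means came from *Lztr1* R409C/+ replicate 3. *Cul3* made up 41.2 ± 0.863% of the pool in WT and 40.0 ± 1.99% in *Lztr1* R409C/+ mice, and *Cul4a* 22.2 ± 0.965% and 24.1 ± 1.75% (SD, n = 3 in each group). *Cul5* made up 11.8 ± 2.50% and 9.78 ± 0.770% (SD, n = 3 in each group). Most of this gap came from WT replicate 3, since the WT shares were 10.5%, 10.2%, and 14.7% in replicate order. The shares of all 7 cullins overlapped between the genotypes (exact permutation p from 0.2 to 0.8, in a design that cannot go below 0.1). The sum of *Rbx1* and *Rnf7* was 36.4 ± 11.5 CPM per kb in WT and 37.4 ± 6.33 CPM per kb in *Lztr1* R409C/+ mice (SD, n = 3 in each group). The near-equal means rested on WT replicate 3 (49.6), since the other WT mice (30.2 and 29.3) were below every mutant (44.7, 33.5, and 33.9). Relative to the cullin pool this sum was 0.438, 0.433, and 0.739 for the WT mice and 0.720, 0.507, and 0.658 for the mutants, with overlap. The ratio of *Rnf7* to *Rbx1* per length was held within 3.01 to 3.16 in WT, although the level of each gene differed widely between those mice, and lay between 2.96 and 3.72 in the mutants (exact permutation p = 0.4).

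The adaptor was next related to its scaffold within each library, a ratio that does not depend on the scaling between libraries. The CPM of *Lztr1* was 14.9%, 15.8%, and 14.5% of that of *Cul3* for the WT mice, against 16.5%, 18.8%, and 23.3% for the mutants. All 3 mutants were above all 3 WT mice, and *Lztr1* R409C/+ replicate 3, with the lowest *Cul3*, was the highest. On the log2 scale the ratio was -2.73 ± 0.064 in WT and -2.37 ± 0.25 in *Lztr1* R409C/+ mice (SD, n = 3 in each group), a difference of 0.36 or 1.28-fold. The two-sided exact permutation test gave p = 0.1, which is the floor of this design, so the threshold of 0.05 was out of reach. With 1 mouse left out in turn, the difference lay between 0.23, without *Lztr1* R409C/+ replicate 3, and 0.47. Its direction could not turn in this way, since the groups did not overlap. Over all 16507 other genes tested with counts in every mouse, the ratio of *Lztr1* to the gene was higher without overlap in 14.7% and did not overlap, in either direction, in 19.1%. Per exon length, *Lztr1* amounted to 12.6 ± 0.559% of *Cul3* in WT and 16.3 ± 2.88% in *Lztr1* R409C/+ mice, and to 20.4 ± 0.905% and 26.4 ± 4.66% when the longest transcript was used as the length (SD, n = 3 in each group). Against the whole cullin pool, *Lztr1* amounted to 5.25%, 5.34%, and 4.96% per length in WT and 5.76%, 6.33%, and 7.36% in the mutants, without overlap. This was not an independent result, since the *Lztr1* values are the same and *Cul3* is the largest part of the pool (41.2% in WT). The summed macrophage markers also separated the genotypes, as given above, and their part in the ratio was not tested.

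The same ratio was taken to each of the 9 other members, and these comparisons share the *Lztr1* values. It was higher in every mutant for 4 of them, *Cul1*, *Cul3*, *Cul4a*, and *Cul5*, each with an exact permutation p of 0.1, beside 14.7% of all genes. The difference in mean log2 ratio was 0.30 for *Cul1*, 0.20 for *Cul4a*, and 0.57 for *Cul5*. With *Cul1* it was 0.19 without *Lztr1* R409C/+ replicate 3, and with *Cul5* it was 0.37 without WT replicate 3. With *Cul4a* it lay between 0.16 and 0.25 whichever mouse was left out. *Cul4a* gave the tightest ratio in WT, where *Lztr1* was 24.3%, 24.1%, and 24.3% of *Cul4a*, against 26.0%, 28.2%, and 29.2% in *Lztr1* R409C/+ mice. The groups overlapped for *Cul2*, *Cul4b*, *Cul7*, *Rbx1*, and *Rnf7* (two-sided exact permutation p between 0.2 and 0.9). For *Rbx1* the difference was 0.17 and for *Rnf7* 0.02, with WT SDs of 0.52 and 0.49. Without WT replicate 3 these differences were -0.13 and -0.26.

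**Figure D3:**
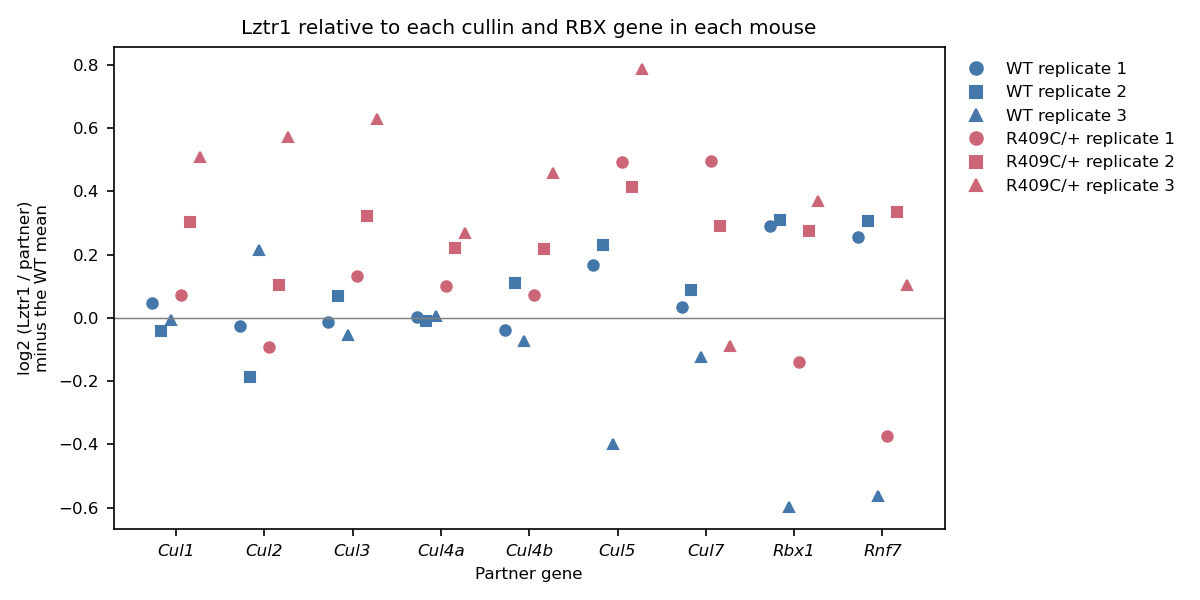
Log2 ratio of *Lztr1* to each partner gene in each mouse, minus the WT mean of that ratio (y axis), for 9 partners, with WT in blue and *Lztr1* R409C/+ (R409C/+) in red. The red points lie above the blue ones for *Cul1*, *Cul3*, *Cul4a*, and *Cul5* and mix with them for the other 5 partners.

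Cullins are switched on by attachment of the ubiquitin-like protein NEDD8, switched off by the COP9 signalosome, and exchanged between adaptors by CAND proteins. In lists of 42 genes for these steps, for the adaptors of other cullins, for the enzymes that deliver ubiquitin, and for cullin relatives, 14 had higher and 28 had lower estimates in the mutants with TMM, with a median log2 fold change of -0.06. On library size only, where the median over all genes was -0.14, *Ube2f*, *Gps1*, *Cops4*, *Cops7a*, *Glmn*, and *Ccdc8* turned lower, and the others kept their direction. No gene of these lists passed the adjusted threshold in edgeR or DESeq2. At an unadjusted p under 0.05, 1 gene, *Elob*, was called by each tool, where edgeR called 8.63% of all genes. Without *Lztr1* R409C/+ replicate 2, 4 of the 42 were called, without *Lztr1* R409C/+ replicate 3 there were 3, and without WT replicate 1 or *Lztr1* R409C/+ replicate 1 there were 2.

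*Elob* encodes elongin B, which together with elongin C links CUL2 and CUL5 to their receptors. It had 49.7, 43.0, and 35.5 CPM in WT and 57.9, 53.3, and 65.5 CPM in the mutants, so that all mutants were above all WT mice. The log2 fold change of *Elob* was 0.46 with a standard error of 0.17 (unadjusted p = 0.0169, adjusted p = 0.478, edgeR). Its partner *Eloc* had a log2 fold change of -0.06, and of the other adaptors *Skp1*, which joins CUL1 to F-box proteins, had -0.30 and *Ddb1*, which joins CUL4 to its receptors, -0.26. Single mice carried much of both, since *Skp1* had -0.10 without WT replicate 3 and -0.14 without *Lztr1* R409C/+ replicate 3, and *Ddb1* -0.089 without *Lztr1* R409C/+ replicate 1. The log2 fold change of *Elob* was 0.34 without WT replicate 3 (unadjusted p = 0.0628, edgeR) and 0.38 without *Lztr1* R409C/+ replicate 3 (unadjusted p = 0.0541, edgeR). On library size only it was 0.35 with a standard error of 0.33 (unadjusted p = 0.286, edgeR).

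Of the 11 genes of the NEDD8 cycle, 3 were higher and 8 lower. *Nedd8* itself had 22.0 ± 1.96 CPM in WT and 27.8 ± 3.57 CPM in *Lztr1* R409C/+ mice (SD, n = 3 in each group). The fit placed *Nedd8* at a log2 fold change of 0.34 (adjusted p = 0.599, edgeR). *Nae1*, a subunit of its activating enzyme, had a log2 fold change of -0.28, which was -0.13 without WT replicate 3 and -0.057 without *Lztr1* R409C/+ replicate 3. Of the 10 signalosome genes, 7 were higher and 3 lower in the fit with TMM. On library size only, *Gps1* (-0.051), *Cops4* (-0.12), and *Cops7a* (-0.026) were lower too, and so most of the 10 were lower. The median over all genes was -0.14 in that fit, below each of these 3 values. With TMM, the smallest p-values of the signalosome genes belonged to *Cops6*, with a log2 fold change of 0.43, and *Cops8*, with -0.17. *Cops6* had 51.4, 44.4, and 22.0 CPM in WT and 52.5, 46.4, and 59.3 CPM in the mutants, and without WT replicate 3 its log2 fold change was 0.14. *Cops8* was lower in every mutant, with 62.3 ± 2.17 and 55.3 ± 3.74 CPM (SD, n = 3 in each group). Levels of *Cand2*, the muscle-enriched exchange factor, were 126.9 ± 5.57 CPM in WT and 100.7 ± 23.0 CPM in *Lztr1* R409C/+ mice (SD, n = 3 in each group), without overlap. The fit gave *Cand2* a log2 fold change of -0.33 (adjusted p = 0.648, edgeR). *Cand1* had a log2 fold change of -0.30, and *Glmn*, whose product blocks RBX1, one of 0.03. Without *Lztr1* R409C/+ replicate 1, the log2 fold change was -0.17 for both *Cand2* and *Cand1*, and that of *Glmn* was -0.18.

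Among 8 genes for ubiquitin-conjugating enzymes and the RBR ligases that work with cullins, 1 was higher and 7 lower. *Cdc34*, the conjugating enzyme of CUL1 ligases, was the higher one, with a log2 fold change of 0.41 (adjusted p = 0.619, edgeR), and *Arih1*, an RBR ligase that acts on neddylated complexes, had -0.27 and did not overlap. Without *Lztr1* R409C/+ replicate 3, *Cdc34* had 0.21 and *Arih1* -0.16. Among 6 cullin relatives and CUL7 partners, 1 was higher and 5 lower. *Cul9* had a log2 fold change of -0.30, and *Obsl1*, the CUL7 partner, one of -0.37 (adjusted p = 0.650 and 0.676, edgeR). *Obsl1* was highest in WT replicate 3, and its log2 fold change was -0.094 without that mouse and -0.24 without *Lztr1* R409C/+ replicate 1, without which *Cul9* had -0.20. In all, 4 of the 42 genes were lower without overlap (*Cops8*, *Cand2*, *Arih1*, and *Anapc2*), near the 7.23% of all genes, and 1 (*Elob*) was higher, where 8.3% of all genes were.

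**Figure D4:**
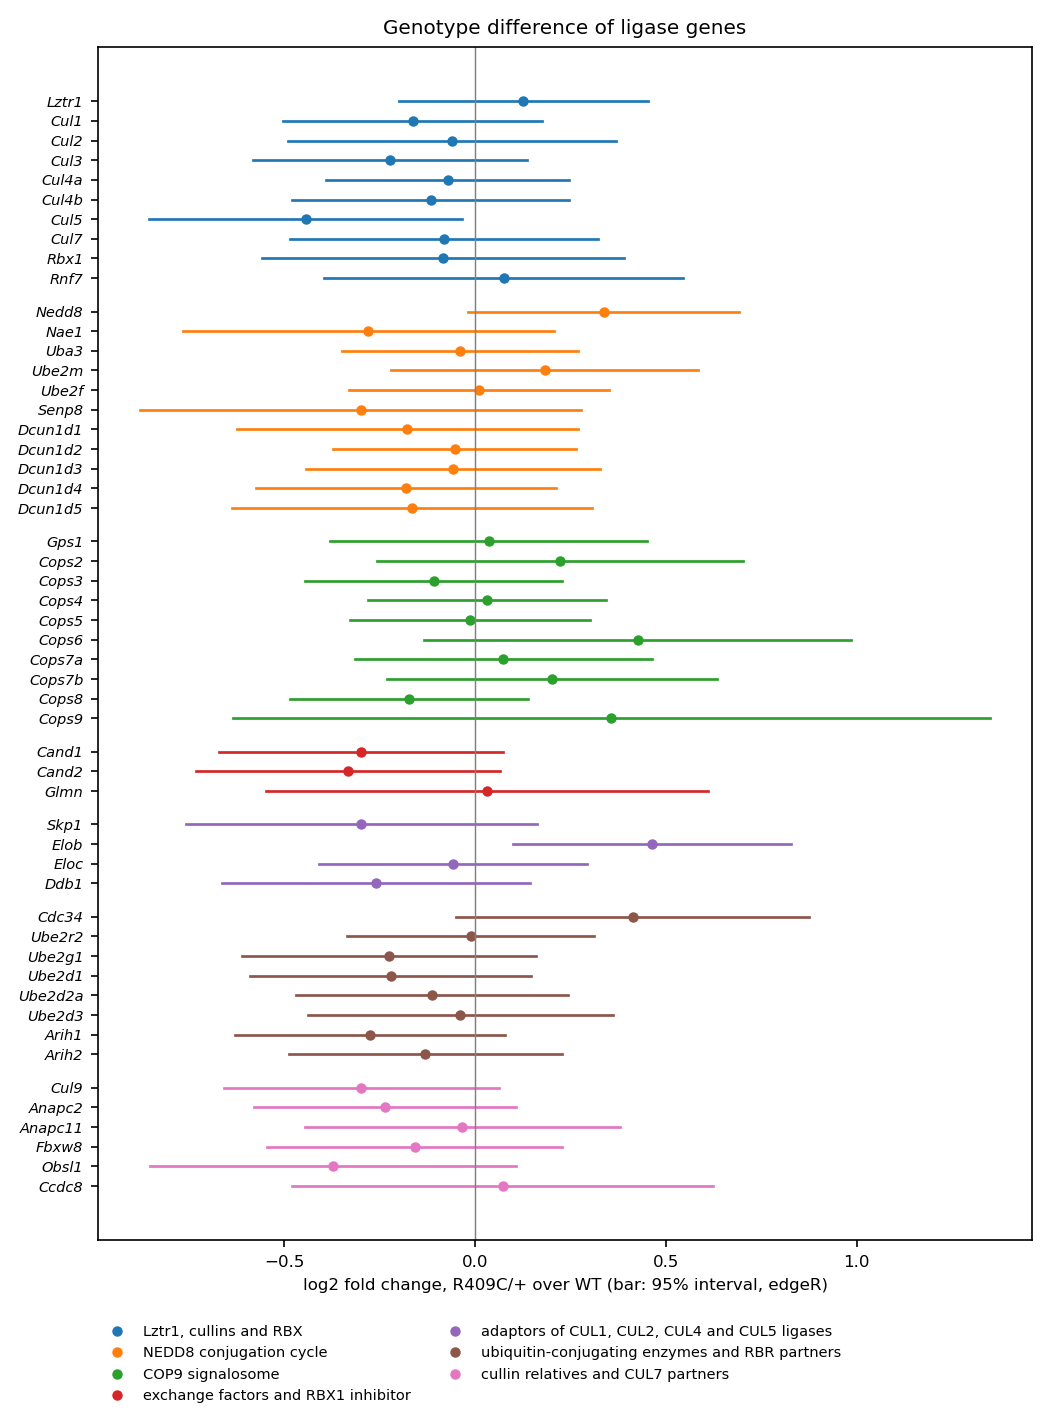
Log2 fold change of *Lztr1* R409C/+ over WT (x axis) with its 95% interval from edgeR for the 10 members and the 42 pathway genes, coloured by list. The interval leaves out 0 for *Cul5* and *Elob* and includes it for the other 50 genes, before any adjustment for the number of genes tested.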

How the data were processed

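RNA from PBS-perfused LVs was sequenced by the authors, 1 library per mouse. Per the labels and the study's methods, the authors trimmed reads with Trim-galore, aligned them to GRCm39 with HISAT2, excluded rRNA, and used StringTie and edgeR, and deposited whole-number counts per gene without normalization. For 12629 genes the authors deposited a second file, which holds log2 fold changes, average log2 CPM, p-values, and adjusted p-values of mutant against WT. Only its gene names were used, joined by identifier, and 3 further names came from GENCODE vM39. Versions, annotation release, and strand setting are not given in the sources used here. The labels do not say that replicates share a litter or day.

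Counts were filtered with filterByExpr, scaled with TMM, and tested with the robust quasi-likelihood test of edgeR 4.0.16 in R 4.3.3 (3 against 3, two-sided, Benjamini-Hochberg over 17212 genes, threshold 0.05). Libraries held 66130887 to 72641124 counts, and the common biological coefficient of variation was 26.1%. Ratios were compared with an exact permutation test. Gene positions and exon lengths are those of GENCODE vM39 on GRCm39. The listed guide and motif were placed so that the motif follows the guide in the genome. Alternatives were DESeq2 1.42.0 (size factors or Wald test), library size only, no mitochondrial genes, other filters, a replicate block, and omission of each mouse. On data simulated for 17212 genes, with 200 changed by 1 on the log2 scale, edgeR called 83 changed and 9 unchanged genes and DESeq2 101 and 31. The largest member estimate was -0.44 (*Cul5*), and changes of that size were not simulated. Named were all members, the 2 genes of each pathway list with the smallest p, and the 3 genes most like *Lztr1*, and other pathway genes were named after their values were seen. The members and lists were chosen with earlier results of these data known.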

Additional observations from a re-analysis of the deposited data

How the results depend on the processing

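Of 130 recomputed member fold changes (13 alternatives for each gene), 120 kept their sign and 10 did not, and none passed the adjusted threshold. On library size only, the log2 fold change was -0.014 for *Lztr1* and -0.18 for *Rnf7*, the members' median was -0.25 and that of all genes -0.14, 21 genes passed the adjusted threshold, and 0 of the 42 pathway genes had an unadjusted p under 0.05. Genes past the adjusted threshold numbered 7 in the reported edgeR fit, 158 with DESeq2's Wald test, and 20 without a filter on low counts. With the replicate block, 1 gene passed and 0 members had an unadjusted p under 0.05. Same-numbered mice did not deviate together (correlations from -0.05 to 0.01 across genes), and so the numbers were not taken as pairs.

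With each mouse left out in turn, 2 to 4 genes passed the adjusted threshold, 0 to 1 members and 1 to 4 pathway genes had an unadjusted p under 0.05, and the log2 fold change ranged from -0.20 to 0.11 for *Cul2*, -0.24 to 0.074 for *Cul7*, -0.22 to 0.22 for *Rbx1*, and -0.093 to 0.36 for *Rnf7*. Signs turned without WT replicate 2 (0.057) or *Lztr1* R409C/+ replicate 3 (0.11) for *Cul2*, without *Lztr1* R409C/+ replicate 1 for *Cul7*, without WT replicate 3 (0.22) or *Lztr1* R409C/+ replicate 3 (0.019) for *Rbx1*, and without WT replicate 1 (-0.039), WT replicate 2 (-0.062), or *Lztr1* R409C/+ replicate 1 for *Rnf7*. That of *Lztr1* ranged from 0.06 to 0.17 and that of *Cul3* from -0.31 to -0.09. With *Rbx1* in place of *Cul3*, the difference in the log2 ratio of *Lztr1* was 0.17. The longest transcript as length moved 4 genes to another rank. The alternatives for the pathway genes and the omission of mice from the ratios of *Lztr1* to genes other than *Cul3* were chosen after seeing the data. The causes of these shifts were not tested. The p-values rest on 3 mice per genotype, with 1 fewer where a mouse was left out. Those of edgeR and DESeq2 also use variability shared across genes.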

Other observations

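Among 7745 other genes with a mean of at least 10 CPM, the 3 whose log2 CPM followed *Lztr1* most closely over the 6 mice were *Spry4*, *Slc25a22*, and *Ift122*, with Pearson correlations of 0.97 each. This is a description of 6 libraries chosen as the highest of many values, and the points share library composition and scaling. *Spry4*, a feedback inhibitor of RAS/MAPK signaling, had 11.1, 13.1, and 8.40 CPM in WT and 11.9, 19.2, and 15.1 CPM in *Lztr1* R409C/+ mice. *Slc25a22*, a mitochondrial glutamate carrier, had 32.2, 30.6, and 23.9 CPM and 27.7, 40.5, and 33.2 CPM. *Ift122*, of the intraflagellar transport machinery, had 13.4, 13.7, and 11.3 CPM and 13.5, 19.3, and 17.3 CPM. All 3, like *Lztr1*, were lowest in WT replicate 3 and highest in *Lztr1* R409C/+ replicate 2. None of the cullin or RBX genes came near these values, with correlations to *Lztr1* between -0.53 for *Rnf7* and 0.23 for *Cul2*.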
